A study of Mus musculus with 24 samples.

Results

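Radiation was compared with sham treatment in vector tumours, that is, in tumours grown from SCC7 cells that carry an empty vector. SCC7 is a mouse squamous cell carcinoma line. RNA was read from 3 irradiated tumours, coded I-732, I-736 and I-739 (NC IR), and from 3 sham tumours, coded S-758, S-759 and S-761 (NC sham), which together are 6 of the 24 tumours of the series. About 1000000 cells had been placed under the skin of the flank of female C3H mice 6 to 8 weeks old, and treatment began when the mean tumour volume was about 300 mm3. The irradiated tumours received 8 Gy of X-rays on each of 3 days under isoflurane, with lead shielding that left the tumour exposed, and by the code neither group received olaparib. The other 18 tumours carried the same vector under other treatments or overexpressed miR-21-5p (OE), and some of them received olaparib at 50 mg/kg, a drug that blocks PARP enzymes. The time between the last fraction and collection is not given in the sources used here.

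The 6 tumours were assigned by the letters of their coded identifier, I for the irradiated and S for the sham tumours, and the written treatment labels do not all match that code. Both labels named the same group for tumours I-732 and I-736 only. Tumour I-739 was written as irradiated with olaparib, tumour S-758 as a sham tumour of the miR-21 line, tumour S-759 as irradiated with olaparib in the vector line and tumour S-761 as olaparib alone in the vector line. On radiation itself, code and written label gave the same answer for 5 of the 6 tumours and differed for tumour S-759. Over the series they named different groups for 19 of 24 tumours and differed on radiation for 8 of the 24. The written cell type reads OE for all 24. The code was preferred after p53 target genes had been looked at under both labels, so the rise of those genes reported here is not independent evidence that the code is right. The labels give 3 tumours per group and a number to each. The p-values measure the spread between tumours within groups, estimated over all 24 tumours and not from these 6 alone.

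As background, X-rays break DNA, and the breaks stabilise p53, a transcription factor that switches on inhibitors of the cell cycle, its own inhibitor and genes of cell death. Cells that stop dividing lower the genes of DNA replication and mitosis. Genes of cholesterol synthesis and uptake share another regulator: the SREBP factors, which are held at the endoplasmic reticulum by the INSIG proteins while sterols are plentiful and are released to the nucleus when sterols are scarce. Cholesterol that macrophages take up with dying cells drives the opposite programme, the LXR-regulated efflux genes. RNA of a whole tumour mixes malignant cells with immune, vascular and other host cells, so that fewer cells of a type and less RNA per cell cannot be told apart.

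The 6 tumours did not form equally tight groups, which bears on each count below. Libraries of the series held 37099055 to 40004502 counted reads over 27368 genes, of which 16560 were tested. Across genes, Spearman's rho between sham tumours S-758 and S-759 was 0.991, and irradiated tumour I-739 was nearer to sham tumour S-758 (0.978) than to irradiated tumour I-732 (0.934). The squamous markers Krt5, Krt14, Trp63 and Epcam were low or uneven, while Itga6 and Itgb4 were expressed in all 6 tumours. Krt14, a keratin of basal squamous cells, was at 4.53, 2.20 and 41.7 CPM in sham tumours S-758, S-759 and S-761 and at 0.298, 149 and 0.620 CPM in irradiated tumours I-732, I-736 and I-739, where CPM is the reads of a gene per 1000000 counted, scaled by TMM factors. The same order of tumours is used for all values below. Trp63, which encodes the squamous lineage factor p63, was at 0.235, 0.207 and 0.947 CPM and 1.68, 3.23 and 0.906 CPM. Itgb4 was at 319, 319 and 250 CPM and 154, 215 and 317 CPM. Itga6 was at 139, 165 and 156 CPM and 65.2, 94.3 and 123 CPM. Krt8, a keratin of simple epithelia, was at 737, 767 and 729.7 CPM and 185, 141 and 496 CPM. Skeletal muscle genes took 2.23% of the counts of irradiated tumour I-732 and 0.0755% or less of those of the other 5.

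At the level of all genes, 1659 of 16560 tested genes (10.0%) differed between irradiated and sham tumours by edgeR's quasi-likelihood test at a Benjamini-Hochberg adjusted p below 0.05. Of these, 764 (4.61% of tested genes) rose and 895 (5.40%) fell. Cholesterol synthesis, ribosomal protein, glycolysis and DNA replication genes were among those that fell, and p53 target genes, acute-phase genes and cholesterol efflux genes among those that rose. Without regard to the test, every irradiated tumour lay above every sham tumour for 2380 genes (14.4%) and below for 2444 (14.8%). At an unadjusted p below 0.05 there were 4903 of the 16560, the share to set beside such counts in the lists below. The median log2 fold change of all tested genes was 0.04.

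The number of calls rested on single tumours. It fell to 2 without irradiated tumour I-732 and to 3 without sham tumour S-761, to 269 without irradiated tumour I-736 and to 271 without sham tumour S-758, and it rose to 3733 without irradiated tumour I-739. Of 17026 genes tested without tumour I-739, 1795 rose and 1938 fell. The DESeq2 test called 2886 of 16255 genes, 1524 higher and 1362 lower. With voom sample quality weights 5851 of 16560 were called, 2930 higher and 2921 lower. List counts under these fits are to be read against these totals. A fit on the 6 libraries alone called 0 genes, with 3266 at an unadjusted p below 0.05. Groups by the written label gave 5 calls, all of them higher, and 0 of these were among the 1659: Fbh1, Gclc, Kyat1, Ppp1r21 and Uvrag. In both fits, without tumour I-732 and without tumour S-761, 0 genes rose, and the count of called genes was 0 in each gene list below other than that of cholesterol synthesis and uptake. Both genes called without tumour I-732 were also called with it: Insig1 and Mvk, of cholesterol metabolism. Without tumour S-761 the called genes were these and Ermap. Ermap was near the floor, at 0.547, 1.01 and 0.367 CPM in sham tumours S-758, S-759 and S-761. It was at 0.0271, 0.0520 and 0.0477 CPM in irradiated tumours I-732, I-736 and I-739. Its group means of 0.641 and 0.0423 CPM lay below the 1 CPM asked of genes ranked by fold change.

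**Figure D1:**
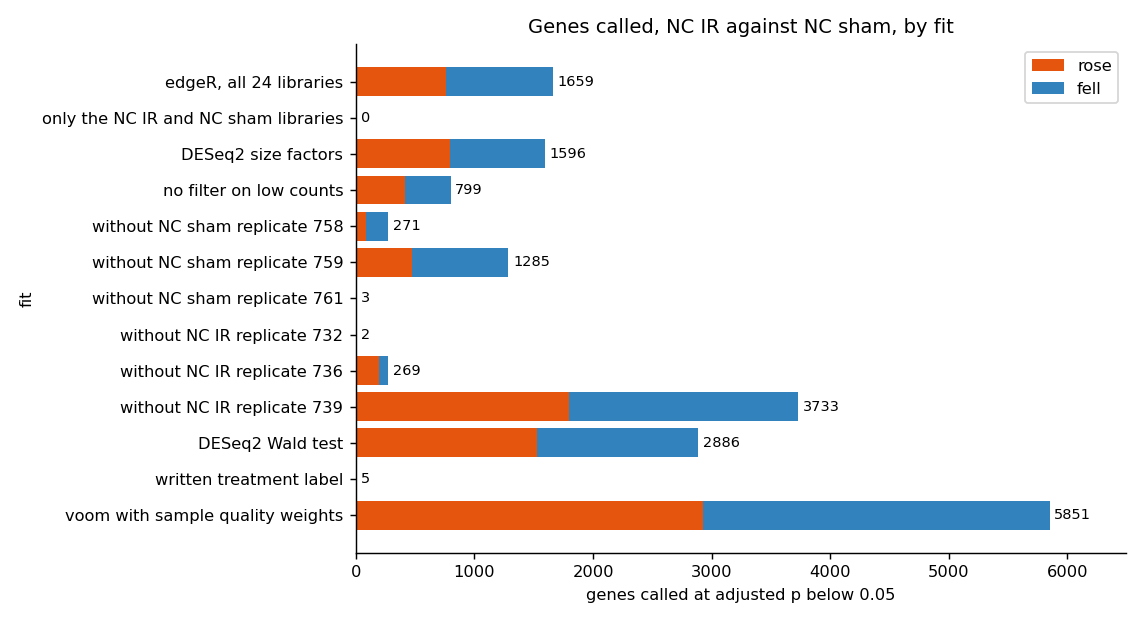
Genes called at an adjusted p below 0.05 for irradiated against sham vector tumours, on the horizontal axis, under each fit on the vertical axis, with risen genes in orange and fallen genes in blue. The count is 1659 with all libraries, 2 without irradiated tumour I-732, 3 without sham tumour S-761 and 3733 without irradiated tumour I-739.

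Cholesterol genes fell almost as a block. Of 24 tested genes of cholesterol synthesis and uptake 22 fell, against 5.40% of all genes. All 24 were lower in every irradiated tumour than in every sham tumour, against 14.8% of all genes. Their median log2 fold change was -1.50. The median shift of the list from the sham mean was -2.21, -1.79 and -0.99 in irradiated tumours I-732, I-736 and I-739, so tumour I-739 moved least, and -0.04, -0.08 and 0.12 in the sham tumours. Without tumour I-732 or without tumour S-761 the number that fell was 2, while the median over the list stayed between -1.95 and -1.34 whichever tumour was left out.

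Insig1 encodes a protein that holds the SREBP complex in the endoplasmic reticulum and is itself an SREBP target. It was at 95.4, 107 and 135 CPM in the sham tumours and 33.7, 33.5 and 34.2 CPM in the irradiated ones. The 3 irradiated tumours lay within 1 CPM of each other and far below the lowest sham tumour. The log2 fold change was -1.73 ± 0.22 (SE), adjusted p = 0.00248. With each tumour left out in turn, it ran from -1.81 to -1.60 and was called in 6 of 6 fits, at adjusted p = 0.000546 to 0.0338.

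Mvk encodes mevalonate kinase, an early enzyme of the pathway. Its level was 32.9, 30.8 and 45.5 CPM in sham and 11.2, 11.6 and 17.4 CPM in irradiated tumours, a log2 fold change of -1.44 ± 0.19 (adjusted p = 0.00248) that was also called in 6 of 6 such fits. The groups did not overlap, and tumour I-739 was the highest of the irradiated ones. Hmgcs1 encodes the synthase at the head of the pathway. It was at 177, 177 and 158 CPM and 34.9, 45.7 and 92.5 CPM, without overlap (-1.56 ± 0.29, adjusted p = 0.0137).

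The promoters of these 3 genes are shown because Insig1 and Mvk were called with each tumour left out and Hmgcs1 heads the pathway. Each is 300 bases on the plus strand of GRCm38.p6, from 250 before the annotated start, written 5′ to 3′, and they lie at chr5:28071162-28071461 (Insig1), chr5:114444019-114444318 (Mvk) and chr13:119690101-119690400 (Hmgcs1). The sequences are RefSeq's. Capitals mark CCAAT, the box bound by NF-Y, on either strand (CCAAT or ATTGG), and TCACNCCAC, a form of the sterol response element.
Insig1: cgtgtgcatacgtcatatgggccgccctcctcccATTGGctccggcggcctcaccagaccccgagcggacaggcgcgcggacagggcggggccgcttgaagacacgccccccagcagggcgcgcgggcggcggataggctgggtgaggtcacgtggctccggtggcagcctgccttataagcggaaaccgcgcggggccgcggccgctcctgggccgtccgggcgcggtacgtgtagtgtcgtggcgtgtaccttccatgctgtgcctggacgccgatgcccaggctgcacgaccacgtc
Mvk: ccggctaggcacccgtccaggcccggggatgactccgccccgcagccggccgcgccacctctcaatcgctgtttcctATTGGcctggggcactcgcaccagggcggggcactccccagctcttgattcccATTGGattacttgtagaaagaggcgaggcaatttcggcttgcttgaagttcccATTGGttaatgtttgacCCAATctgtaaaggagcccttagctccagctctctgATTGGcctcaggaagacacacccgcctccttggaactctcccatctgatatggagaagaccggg
Hmgcs1: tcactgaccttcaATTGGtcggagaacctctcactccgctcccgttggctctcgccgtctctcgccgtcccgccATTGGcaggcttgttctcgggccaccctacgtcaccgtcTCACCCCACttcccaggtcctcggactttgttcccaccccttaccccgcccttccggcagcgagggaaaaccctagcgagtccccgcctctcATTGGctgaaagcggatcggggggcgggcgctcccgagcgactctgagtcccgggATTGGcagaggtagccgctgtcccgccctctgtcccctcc

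The Insig1 promoter holds 1 CCAAT box, that of Mvk 5 and that of Hmgcs1 4, and TCACNCCAC is found once, in Hmgcs1, overlapping none of its CCAAT boxes. RefSeq gave a promoter for 17 of the 24 tested sterol genes. Of these 17, 16 (94.1%) held CCAAT on either strand, against 41.1% of the 27025 genes with a promoter, and 1 (5.88%) held TCACNCCAC, against 1.44%. CCAAT was added to the search after the data were seen. It was also held by 23 of 28 promoters of mitosis genes (82.1%) and 7 of 20 of interferon response genes (35%), so it was not confined to sterol genes. A match is a description of the letters in this window.

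Later steps of the pathway fell further in tumours I-732 and I-736 than in tumour I-739. Fdps, which encodes the farnesyl diphosphate synthase, was at 188, 180.5 and 282 CPM in sham and 15.3, 21.9 and 60.5 CPM in irradiated tumours (-2.73 ± 0.43, adjusted p = 0.00863). Sqle, squalene epoxidase, stood at 218, 225 and 241 CPM against 22.1, 26.3 and 88.8 CPM (-2.32 ± 0.59, adjusted p = 0.0277). In both genes the groups did not overlap and tumour I-739 was the highest irradiated tumour. Cyp51 and Msmo1, of the demethylation steps, changed by -2.35 and -2.11 (adjusted p = 0.0172 and 0.00857).

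The gene of a regulator showed the same order of tumours. Srebf2, the SREBP gene of the sterol branch, was at 396, 442 and 302 CPM and 81.5, 103 and 245 CPM (-1.41 ± 0.35, adjusted p = 0.0260). Tumour I-732 was lowest, tumour I-739 highest among the irradiated, and none reached the sham range. Tm7sf2 and Hsd17b7, a sterol reductase and a sterol dehydrogenase, were lower in every irradiated tumour without passing the test.

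Of 14 fatty acid synthesis genes 9 fell and 0 rose, against 5.40% and 4.61% of all genes, with a median of -0.75. Fads1, a desaturase, was at 207, 229.8 and 273 CPM in sham and 93.4, 121 and 84.8 CPM in irradiated tumours (-1.24 ± 0.19, adjusted p = 0.00857), and here tumour I-739 was the lowest. Its relative Fads2 was at 82.3, 80.8 and 65.6 CPM and 6.50, 7.28 and 27.4 CPM (-2.47 ± 0.68, adjusted p = 0.0335). Acss2, which makes acetyl-CoA, was at 22.2, 25.0 and 27.5 CPM and 14.2, 14.8 and 13.7 CPM (-0.81 ± 0.15, adjusted p = 0.0139), 3 irradiated values that lay close together. Srebf1, the SREBP gene of the fatty acid branch, changed by -0.66 (adjusted p = 0.0206). Fasn, the fatty acid synthase, overlapped between groups because tumour I-739 lay within the sham range, at 561, 495 and 410.5 CPM in sham and 189, 191 and 412 CPM in irradiated tumours (adjusted p = 0.127). Without tumour I-732 or without tumour S-761 the count of fallen fatty acid genes was 0, with 13 or 14 of 14 still below 0.

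Efflux genes moved the other way in 2 of the 3 irradiated tumours. Of 8 cholesterol efflux genes 3 rose, against 4.61% of all genes, and the median shift was 2.12, 1.83 and -0.09 in tumours I-732, I-736 and I-739. Abca1, the transporter that loads cholesterol onto apolipoproteins, was at 92.8, 104 and 104 CPM in sham and 798, 692 and 116 CPM in irradiated tumours (2.41 ± 0.49, adjusted p = 0.0159). Abcg1, a second such transporter, was at 54.4, 81.5 and 68.4 CPM and 333, 376 and 67.7 CPM (1.93 ± 0.42, adjusted p = 0.0183), and tumour I-739 lay inside the sham range. Mylip, a ubiquitin ligase gene regulated by LXR, was called too (1.92 ± 0.51, adjusted p = 0.0312), again with tumour I-739 inside that range. Apoe, a lipid carrier made by macrophages, was at 743, 643 and 1154 CPM and 5969, 5225 and 309 CPM and did not pass the test (adjusted p = 0.0654). Summed macrophage and monocyte markers moved with these genes, at 7001, 7508 and 15106 CPM in sham and 20299, 20588 and 4072 CPM in irradiated tumours; their part in the result was not tested.

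**Figure D2:**
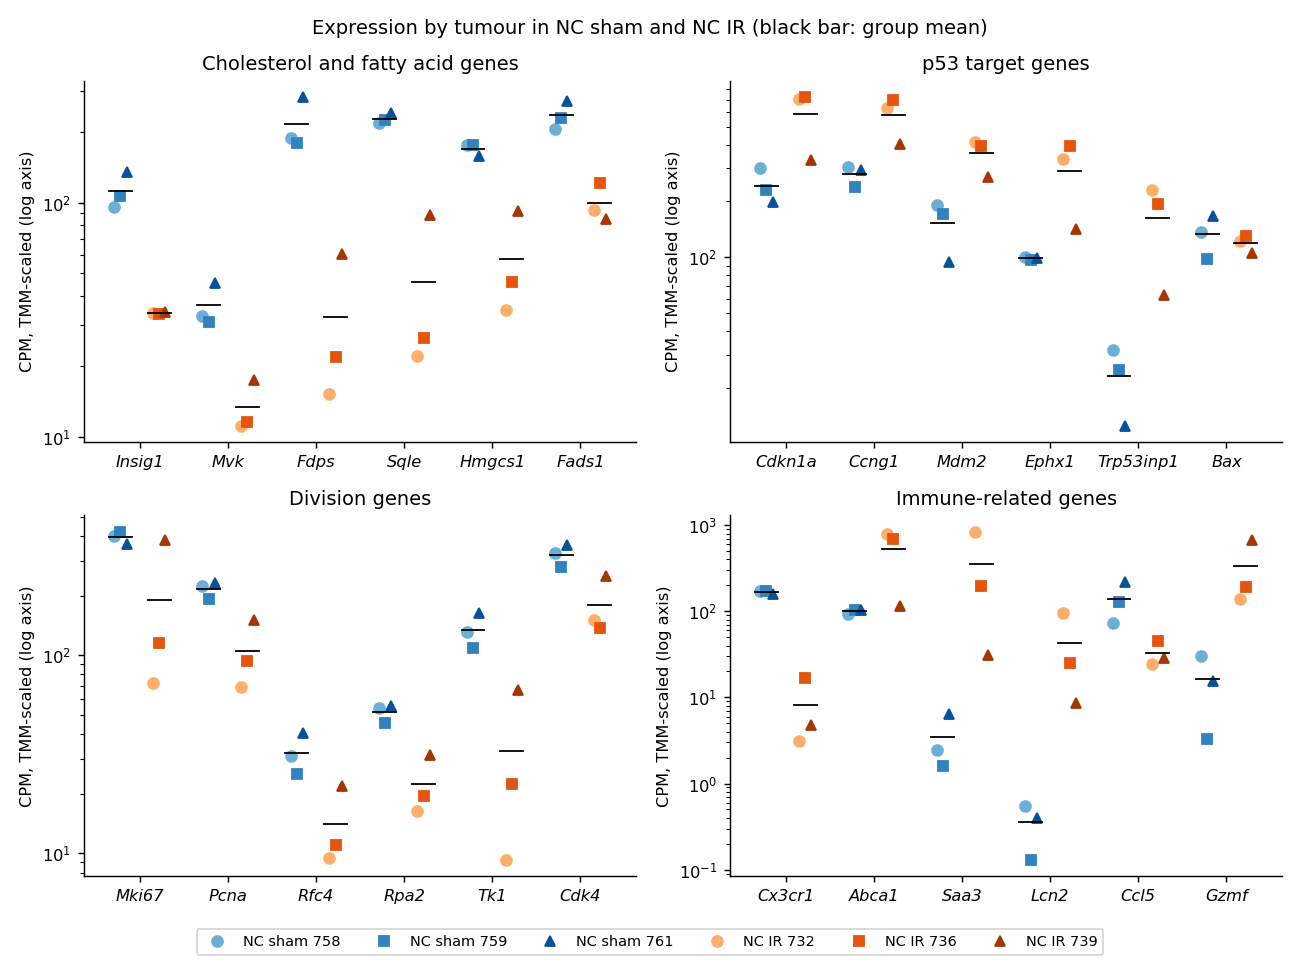
Level of 24 genes in each tumour, as TMM-scaled CPM on log axes, with sham tumours in blue, irradiated tumours in orange and brown and a black bar at each group mean. Insig1 is tightly grouped at 33.5 to 34.2 CPM in the irradiated tumours, while Mki67 is at 379.8 CPM in irradiated tumour I-739 and 72.4 CPM in irradiated tumour I-732.

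Of 34 p53 target genes 11 rose and 0 fell, against 4.61% and 5.40% of all genes, with a median log2 fold change of 0.64. The median shift was 0.60, 0.83 and 0.31 in tumours I-732, I-736 and I-739 and 0.06, 0.04 and -0.22 in the sham tumours. For 17 of the 34 every irradiated tumour lay above every sham tumour (14.4% of all genes). The count of risen targets was 0 without tumour I-732 and 0 without tumour S-761, with 29 of 34 still above 0 in each of these fits, 7 without tumour I-736 and 16 without tumour I-739.

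Cdkn1a, which encodes the cell cycle inhibitor p21, was at 299.7, 229 and 197 CPM in the sham tumours and 705, 719 and 332 CPM in the irradiated ones. The groups did not overlap, but tumour I-739 stood nearer to sham tumour S-758 than to the other irradiated tumours. The log2 fold change was 1.28 ± 0.24 (adjusted p = 0.0139). Ccng1, cyclin G1, was at 305, 238 and 292 CPM and 631, 699 and 403 CPM (1.05 ± 0.19, adjusted p = 0.0132). Mdm2, which encodes the ligase that degrades p53, was at 191, 169.8 and 94.6 CPM and 414, 397 and 270.4 CPM (1.25 ± 0.38, adjusted p = 0.0469).

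Other risen targets had the same order, with tumour I-739 between the groups. Ephx1, an epoxide hydrolase, was at 100.2, 96.9 and 99.1 CPM, almost the same in the 3 sham tumours, and at 334, 393 and 142 CPM after radiation (1.55 ± 0.29, adjusted p = 0.0139). Trp53inp1, a stress-induced partner of p53, was at 31.9, 24.9 and 12.5 CPM and 229, 193 and 62.8 CPM (2.80 ± 0.48, adjusted p = 0.0130). Among death genes, Fas, the death receptor, changed by 1.75 ± 0.34 and Bbc3, which encodes PUMA, by 1.19 ± 0.32 (adjusted p = 0.0155 and 0.0325). Sesn2, Zmat3 and Phlda3 changed by 1.11, 0.77 and 0.67 (adjusted p = 0.0157, 0.0207 and 0.0235). Gdf15, a secreted stress cytokine, was at 0.417, 1.03 and 0.0917 CPM and 9.67, 11.7 and 2.55 CPM (3.93 ± 0.81, adjusted p = 0.0166).

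Other known targets did not pass the test. Bax, the mitochondrial death effector, was at 136, 97.6 and 167 CPM in sham and 122, 129.6 and 105 CPM in irradiated tumours, with overlapping groups (-0.17 ± 0.14, adjusted p = 0.431). Sesn1 was at 37.3, 38.5 and 46.1 CPM and 141, 96.9 and 25.7 CPM, high in tumours I-732 and I-736 and below the sham range in tumour I-739. Btg2, an antiproliferative gene that is also an immediate early gene, was at 22.0, 27.0 and 15.9 CPM and 115, 74.0 and 29.6 CPM (adjusted p = 0.0832). Immediate early genes Fos and Dusp1, which respond to handling as well as to treatment, were higher in every irradiated tumour without passing the test, at 46.1, 55.0 and 30.5 CPM and 214, 263 and 73.2 CPM for Fos. Of 15 immediate early genes edgeR called 0, with 3 at an unadjusted p below 0.05 (4903 of all 16560 genes). DESeq2 called 1 and voom with weights 6 as higher, against 1524 of 16255 and 2930 of 16560 genes. Of the 15, 13 were above 0, and for 4 every irradiated tumour lay above every sham tumour, against 14.4% of all genes.

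Division genes were lower after radiation in tumours I-732 and I-736 and nearer to sham in tumour I-739. Mki67, the proliferation antigen gene, was at 401, 419 and 365 CPM in sham and 72.4, 115 and 379.8 CPM in irradiated tumours. Tumour I-739 lay inside the sham range, and the log2 fold change of -1.06 ± 0.58 did not pass the test (adjusted p = 0.227). Of 34 mitosis genes edgeR called 0, with 8 at an unadjusted p below 0.05 (4903 of all 16560 genes). DESeq2 called 3 and voom with weights 34 as lower, against 1362 of 16255 and 2921 of 16560 genes. Of the 34, 18 were lower in every irradiated tumour than in every sham tumour, against 14.8% of all genes. All 34 were below 0, with a median of -1.04. Their median shift was -2.32, -1.38 and -0.18 in tumours I-732, I-736 and I-739. Without tumour I-739 the count was 13 (1938 of all 17026 genes fell in that fit), and the median -1.85.

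Of 33 DNA replication genes 11 fell and 0 rose, against 5.40% and 4.61% of all genes. All 33 were below 0, and 27 were lower in every irradiated tumour (14.8% of all genes). Their median was -1.05, and the count was 0 without tumour I-732, I-736, S-758 or S-761, 5 without tumour S-759 and 32 without tumour I-739. Rpa2, a subunit of the single-strand binding complex RPA, was at 54.2, 45.4 and 55.3 CPM in sham and 16.4, 19.6 and 31.5 CPM in irradiated tumours (-1.20 ± 0.28, adjusted p = 0.0209). Pcna, the sliding clamp, was at 222, 193 and 232 CPM and 68.8, 94.0 and 151 CPM (-1.04 ± 0.31, adjusted p = 0.0414). The clamp loader genes Rfc4 and Rfc5 changed by -1.18 and -1.24 (adjusted p = 0.0318 and 0.0350). In all of these, tumour I-739 lay between tumour I-736 and the sham range.

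Some genes of nucleotide supply and of entry into S phase fell as well. Of 14 nucleotide synthesis genes 5 fell, against 5.40% of all genes, with a median of -0.95. The count was 12 without tumour I-739 and 0 without tumour I-732, I-736, S-758 or S-761. Tk1, thymidine kinase, was at 131, 109 and 163 CPM and 9.26, 22.3 and 66.8 CPM (-2.03 ± 0.64, adjusted p = 0.0493). Of 21 genes of G1 cyclins, E2F factors and CDK inhibitors 4 fell, against 5.40% of all genes: Cdk2, Cdk4, E2f2 and Cdkn2c. Without tumour I-739 this count was 11, and it was 0 without tumour I-732, I-736, S-758 or S-761. Cdk4, a G1 kinase, was at 328, 278 and 359 CPM and 150.0, 138 and 251 CPM (-0.84 ± 0.22, adjusted p = 0.0299).

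The study asks about alternative end joining, an error-prone repair route that uses DNA polymerase theta, PARP1 and ligase 3. Of 16 of its genes 1 fell, near the 5.40% of all genes, and this count was 0 with any tumour other than I-739 left out. It was 8 without tumour I-739 and 10 with voom weights, against 1938 of 17026 and 2921 of 16560 genes. The fallen gene was Mre11a, which encodes the nuclease subunit that starts end resection, and 15 of the 16 were below 0 with a median of -0.38. Mre11a was at 53.004, 55.9 and 54.2 CPM in sham and 23.4, 30.3 and 39.1 CPM in irradiated tumours (-0.81 ± 0.22, adjusted p = 0.0308). Polq, the polymerase theta gene, was at 10.7, 11.2 and 9.51 CPM and 1.90, 3.98 and 13.2 CPM, lowest in tumour I-732 and highest of all 6 in tumour I-739 (-0.72 ± 0.55, adjusted p = 0.394). Parp1 was at 143, 123 and 139 CPM and 63.3, 66.3 and 123 CPM (-0.68 ± 0.25, adjusted p = 0.0801). Lig3 was at 54.1, 51.6 and 32.1 CPM and 33.5, 29.8 and 47.2 CPM, with overlapping groups (adjusted p = 0.259).

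Other repair lists held 1 or 2 called genes in a direction, to be read against 4.61% risen and 5.40% fallen among all genes. Of 17 classical end joining genes Dclre1c, the Artemis nuclease gene, rose (1.11 ± 0.29, adjusted p = 0.0303) and Mad2l2, a shieldin subunit gene, fell (-0.71 ± 0.18, adjusted p = 0.0265). Dclre1c was at 19.8, 21.3 and 20.2 CPM in sham and 53.4, 57.1 and 21.4 CPM in irradiated tumours, so tumour I-739 lay just above the sham range. Of 25 homologous recombination and Fanconi anaemia genes Fancl and Xrcc3 fell, all 25 were below 0, and the median was -0.85. Of 14 checkpoint genes Tipin and Timeless fell, which encode partners at the replication fork (-1.23 and -1.11, adjusted p = 0.0234 and 0.0316). Without tumour I-739 the number that fell was 12 of 25 in the recombination list and 7 of 14 in the checkpoint list, and with voom weights 20 and 11, while without tumour I-732 it was 0 in both. Over all genes, 1938 of 17026 fell without tumour I-739 and 2921 of 16560 with voom weights. The median of the recombination list ran from -1.63 without tumour I-739 to -0.51 without tumour I-732.

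**Figure D3:**
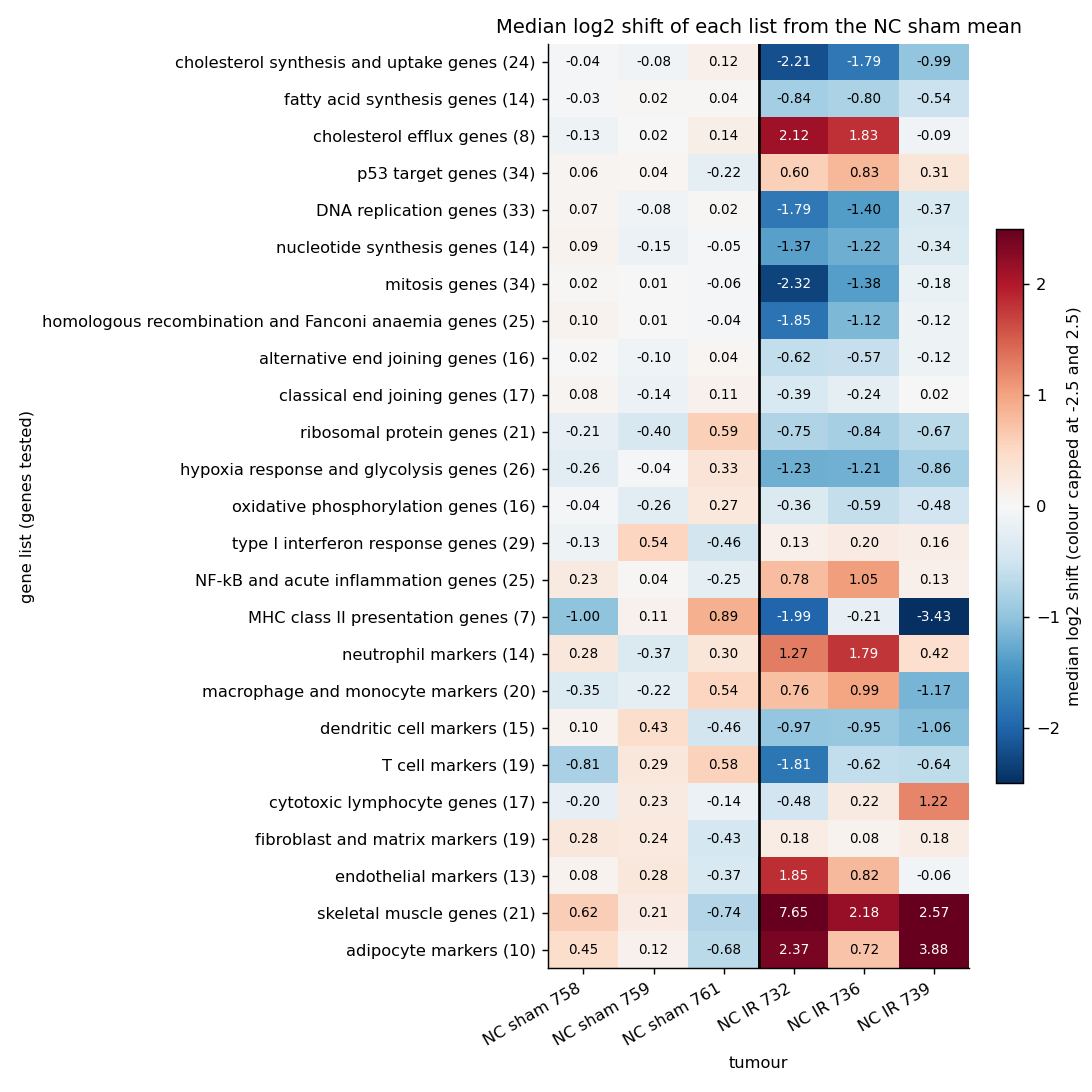
Median log2 shift of 25 gene lists from the mean of the sham tumours, one row per list with its number of tested genes and one column per tumour, red for higher and blue for lower. Cholesterol synthesis and uptake genes are at -2.21, -1.79 and -0.99 in the irradiated tumours, whereas mitosis genes are at -2.32 and -1.38 in tumours I-732 and I-736 and at -0.18 in tumour I-739.

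Ribosomal protein genes were lower in all 3 irradiated tumours, tumour I-739 included. Of 21 tested 20 fell, against 5.40% of all genes. All 21 were lower in every irradiated tumour than in every sham tumour, against 14.8% of all genes, with a median of -0.81. Rpl3 was at 1003, 947 and 1675 CPM in sham and 501, 576 and 740.0 CPM in irradiated tumours (-0.997 ± 0.21, adjusted p = 0.0167), and Rps19 at 767, 554 and 1045 CPM and 421, 411 and 467 CPM (-0.87 ± 0.18, adjusted p = 0.0166). Sham tumour S-761 was the highest for both, and the median shift of the list was -0.21, -0.40 and 0.59 in the sham tumours and -0.75, -0.84 and -0.67 in the irradiated ones. Without tumour S-761 the median over the list was -0.48 and 0 genes were called, and 0 were called without tumour I-732 or without tumour I-736.

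Hypoxia response and glycolysis genes fell in 10 of 26 cases and rose in 0, against 5.40% and 4.61% of all genes. Of the 26, 22 were lower in every irradiated tumour, against 14.8% of all genes, with a median of -1.08. Ldha, lactate dehydrogenase A, was at 1564, 1608 and 2339.9 CPM in sham and 668, 705 and 979 CPM in irradiated tumours (-1.23 ± 0.27, adjusted p = 0.0177). Pdk1, a kinase that inhibits pyruvate dehydrogenase, was at 102, 137 and 167 CPM and 46.5, 71.7 and 71.2 CPM (-1.10 ± 0.26, adjusted p = 0.0227). Pkm, pyruvate kinase, was at 2752, 2934 and 3841 CPM and 1264, 1302 and 1853 CPM (-1.11 ± 0.28, adjusted p = 0.0265). The same 3 tumours, I-732, I-736 and S-761, each took the count to 0 when left out. Of 16 oxidative phosphorylation genes 8 fell, against 5.40% of all genes, with a median of -0.50. In this list 0 were called without tumour I-732, I-736, S-758 or S-761.

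Inflammatory genes rose in part. Of 25 NF-kB and acute inflammation genes 4 rose and 0 fell, against 4.61% and 5.40% of all genes, with a median of 0.83. The risen genes were Lcn2, Il1a, Saa1 and Saa3. Saa3, an acute-phase protein gene, was at 2.45, 1.58 and 6.42 CPM in sham and 835, 198 and 31.2 CPM in irradiated tumours, and the tumours did not overlap (6.68 ± 1.78, adjusted p = 0.0309). Lcn2, which encodes the iron-trapping protein lipocalin 2, was at 0.547, 0.129 and 0.397 CPM and 96.2, 25.0 and 8.61 CPM (6.91 ± 1.52, adjusted p = 0.0183). Tumour I-732 was the highest for both. Il1a, an interleukin released by stressed cells, was at 0.547, 0.155 and 0.183 CPM and 3.30, 4.58 and 0.859 CPM (3.28 ± 0.74, adjusted p = 0.0189). Saa genes resemble each other closely, and how shared reads were counted is not given in the sources used here, so their single values are uncertain. Without tumour I-732 or without tumour S-761, 0 of the 25 were called.

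No interferon response gene was called by edgeR. Of 29 tested, 17 were above 0 and 1 was at an unadjusted p below 0.05, DESeq2 called 0 and voom with weights 1. The median was 0.10 and rested on single sham tumours: it was 0.42 without tumour S-759, with 25 of 29 above 0, and -0.045 without tumour S-761, with 10 above 0. Isg15 was at 70.8, 83.9 and 57.1 CPM in sham and 29.0, 30.2 and 71.8 CPM in irradiated tumours, lower in tumours I-732 and I-736 and inside the sham range in tumour I-739 (adjusted p = 0.312). Oas2 was at 31.8, 52.8 and 27.2 CPM and 62.7, 63.3 and 61.4 CPM, which did not overlap and did not pass the test (adjusted p = 0.129). Irf7, which amplifies the response, was at 181, 249 and 281 CPM and 279.7, 269.8 and 139.9 CPM with overlapping groups (adjusted p = 0.958). Among genes of cytosolic DNA sensing, Ccl5, a T cell chemokine, fell from 72.2, 129 and 221 CPM to 24.5, 44.8 and 28.4 CPM (-2.11 ± 0.49, adjusted p = 0.0223). By letters, 10 of 20 promoters of interferon response genes (50%) held a core of the interferon-stimulated response element, GAAA repeated after any pair of bases, on either strand, against 3.99% of all genes, and 21 of 28 promoters of mitosis genes (75%) held TTTGAA, against 20.2%.

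Of 20 macrophage and monocyte markers 2 rose and 1 fell, near the 4.61% and 5.40% of all genes. The count of risen markers was 0 with any tumour other than I-739 left out and with no filter on low counts, 4 without tumour I-739 and 11 with voom weights. Over all genes, 1795 of 17026 rose without tumour I-739 and 2930 of 16560 with voom weights. Cx3cr1, the fractalkine receptor of monocytes and macrophages, fell. It was at 170.0, 174 and 157 CPM in sham tumours and 3.11, 16.8 and 4.77 CPM in irradiated ones (-4.34 ± 0.96, adjusted p = 0.0184), and it was lower in tumour I-739 as well. Its fold change ran from -5.37 to -3.99 with each tumour left out in turn, and it was called in 4 of 6 such fits. Gpnmb, a gene of lipid-laden macrophages, rose, at 32.3, 31.9 and 20.7 CPM and 174, 90.9 and 40.8 CPM (adjusted p = 0.0499). In contrast, Lyz2, a general myeloid marker, was at 2007, 2212 and 4936 CPM and 7755, 7913 and 1179.7 CPM, and C1qa, a complement gene of tissue macrophages, at 949.7, 1031 and 2194 CPM and 2750.0, 2810.3 and 312 CPM. Both were high in tumours I-732 and I-736 and lowest of all in tumour I-739, and neither was called (adjusted p = 0.208 and 0.555).

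Other immune lists gave few calls, to be read against 4.61% risen and 5.40% fallen among all genes. Of 15 dendritic cell markers Batf3, a factor of cross-presenting dendritic cells, fell, as did Siglech, of plasmacytoid dendritic cells, while Clec10a, a lectin shared with macrophages, rose (-1.59, -3.11 and 2.45, adjusted p = 0.0333, 0.0493 and 0.0481). Siglech and Clec10a overlapped between groups, and with no filter on low counts 0 dendritic cell markers were called. Of 14 neutrophil markers 12 were above 0 and 2 rose, a count of 0 with any tumour other than I-739 left out. It was 4 without tumour I-739 and 9 with voom weights, against 1795 of 17026 and 2930 of 16560 genes. The 2 risen markers were Clec4d, at 9.09, 7.32 and 23.4 CPM and 161, 115 and 16.0 CPM, and Mmp8, the neutrophil collagenase gene, at 0.860, 0.155 and 0.367 CPM and 7.42, 6.06 and 5.91 CPM (adjusted p = 0.0264 and 0.0280). For Clec4d tumour I-739 lay inside the sham range, while Mmp8 did not overlap between groups. S100a8, a standard neutrophil marker, was at 1.04, 0.103 and 1.68 CPM and 5.23, 18.0 and 3.53 CPM (adjusted p = 0.111).

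No gene of the T cell or cytotoxic lymphocyte lists was called by edgeR. Of 19 T cell markers 16 were below 0 and 7 were at an unadjusted p below 0.05 (4903 of all 16560 genes). DESeq2 called 2 of them and voom with weights 0. Cd3e, of the T cell receptor complex, was at 15.8, 41.3 and 58.7 CPM in sham and 5.63, 14.1 and 16.6 CPM in irradiated tumours (adjusted p = 0.115). Of 17 cytotoxic lymphocyte genes 5 were at an unadjusted p below 0.05 (again 4903 of all 16560), and DESeq2 called 4 and voom with weights 1. Their summed level was 327, 379.8 and 356 CPM in sham and 486, 715 and 2601 CPM in irradiated tumours. Gzmf, a granzyme gene, was at 30.2, 3.28 and 15.6 CPM and 141, 190.4 and 668 CPM (4.35 ± 1.48, adjusted p = 0.0648). Tumour I-739 held the highest value, and granzyme genes of this cluster resemble each other in sequence.

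Host tissue separated the tumours further. Of 21 skeletal muscle genes 6 rose, against 4.61% of all genes, and all 21 were above 0. Their summed level was 98.2, 71.3 and 30.7 CPM in sham tumours against 22933, 365 and 677 CPM in irradiated tumours. Tumour I-732 held by far the most. Des, desmin, was at 5.55, 4.42 and 1.44 CPM and 1233, 42.6 and 58.0 CPM (6.86 ± 1.75, adjusted p = 0.0280), and Acta1, skeletal actin, at 20.8, 18.2 and 5.87 CPM and 2299, 65.5 and 105 CPM (adjusted p = 0.0727). The number of called muscle genes was 0 without tumour I-732, S-758 or S-761, 1 without tumour S-759, 3 without tumour I-736 and 14 without tumour I-739. Without tumour I-732 the median was 2.65, against 6.46 with it. Adipocyte markers summed to 58.3, 54.1 and 60.1 CPM and 517, 119 and 516 CPM, and 1 of 10 rose, against 4.61% of all genes. The risen gene was Plin4, a lipid droplet protein gene (adjusted p = 0.0440). The part of muscle and fat RNA in the other results was not tested.

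Of 19 fibroblast and matrix markers, 13 endothelial markers and 20 squamous epithelial genes edgeR called 0. At an unadjusted p below 0.05 were 1, 4 and 2 (4903 of all 16560 genes). DESeq2 called 1 gene of each list, and voom with weights 3, 7 and 7, against 2886 of 16255 and 5851 of 16560 genes. Col1a1, the collagen I gene, was at 755, 793 and 329 CPM and 835, 372 and 563 CPM (adjusted p = 0.962). Krt8 and Krt18, the simple-epithelium keratin pair, were lower in every irradiated tumour but did not pass the test (adjusted p = 0.341 and 0.377). Vim, vimentin, was at 8159.6, 8013 and 11992 CPM and 3606, 4972 and 6272 CPM (-0.92 ± 0.27, adjusted p = 0.0423), and Tgfbi, a matrix protein induced by TGF-beta, at 716, 676 and 951 CPM and 342, 392 and 432 CPM (-1.01 ± 0.19, adjusted p = 0.0132). Neither overlapped between groups.

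**Figure D4:**
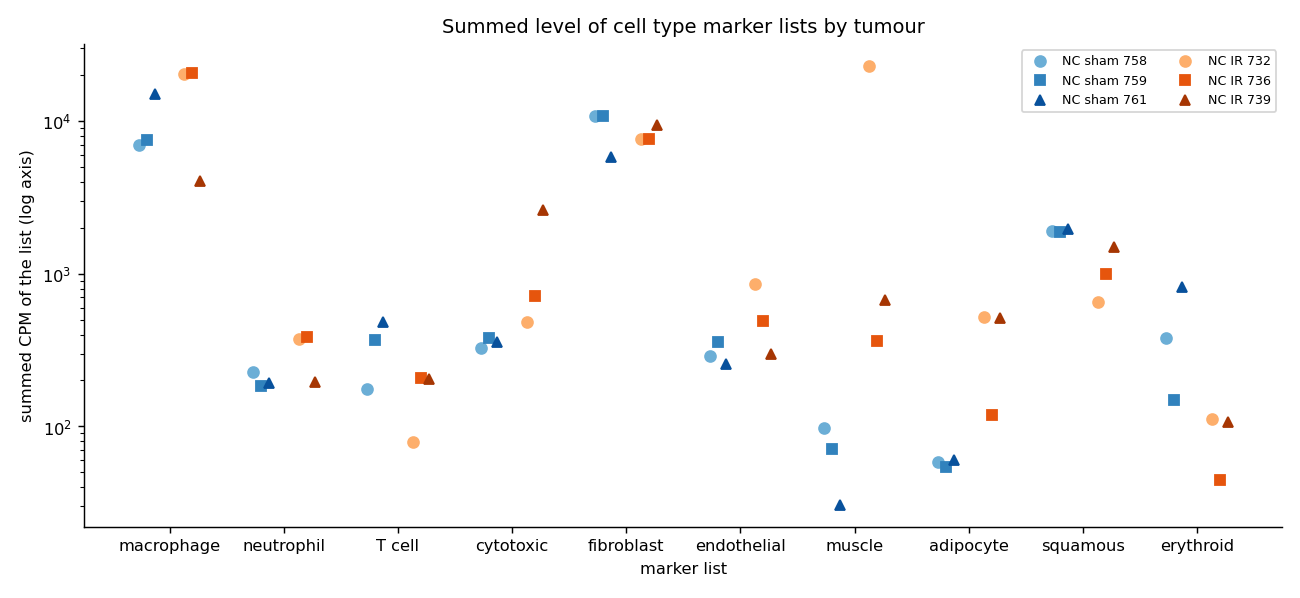
Summed CPM of 10 marker lists in each tumour on a log axis, with sham tumours in blue and irradiated tumours in orange and brown. Skeletal muscle genes reach 22933 CPM in irradiated tumour I-732, cytotoxic genes 2601 CPM in irradiated tumour I-739, and macrophage markers run from 4072 CPM in tumour I-739 to 20588 CPM in tumour I-736.

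Ranked by size, the genes that rose included genes of skeletal muscle. All 12 called genes with the largest rise were highest in tumour I-732, and 3 of them had no read in any sham tumour. They included Trim63, a muscle atrophy ligase gene, at 0.104, 0.103 and 0.0306 CPM and 929, 5.98 and 2.93 CPM, Actn3, a fast muscle actinin gene, at 1.17, 0.543 and 0.214 CPM and 1307, 7.41 and 36.0 CPM, and Pdk4, a kinase of fuel choice in muscle, at 0.1303, 0.103 and 0.0306 CPM and 625, 10.6 and 8.85 CPM. Among the 12 with the largest fall were the sterol genes Fdps, Cyp51 and Sqle, the desaturase Fads2 and the immune genes Cx3cr1, Gpr183, Mgl2 and Xcl1. Gpr183, an oxysterol receptor of immune cells, was at 13.9, 8.71 and 13.7 CPM and 1.00, 1.22 and 3.43 CPM (-2.68 ± 0.47, adjusted p = 0.0132). Crabp1, a retinoic acid binding protein gene, was at 608, 684 and 743.8 CPM and 32.7, 89.5 and 188 CPM (-2.71 ± 0.51, adjusted p = 0.0137).

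Ranked by the smallest p, an order chosen after the data were seen, the risen genes were of other kinds. Inka2, an inhibitor of the kinase PAK4, was at 7.87, 6.26 and 5.96 CPM in sham and 19.7, 29.9 and 15.1 CPM in irradiated tumours (1.69 ± 0.26, adjusted p = 0.00857). Serpine2, a secreted protease inhibitor, was at 2.71, 2.69 and 3.03 CPM and 44.0, 36.8 and 15.3 CPM (3.51 ± 0.60, adjusted p = 0.0130). Trp53cor1, a long noncoding RNA induced by p53, was at 0.782, 0.543 and 0.520 CPM and 3.49, 5.46 and 1.72 CPM (2.53 ± 0.47, adjusted p = 0.0137). The antiproliferative gene Tob1 changed by 1.56 (adjusted p = 0.0132). Cd5l, a macrophage secreted protein gene, was at 0.104, 0.181 and 0.245 CPM and 25.7, 7.21 and 4.44 CPM, and it too was highest in tumour I-732.

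Of the fallen genes in that order, Insig1 and Mvk came first. Galk1, galactokinase, was at 106, 98.4 and 116 CPM and 31.8, 33.6 and 56.9 CPM (-1.39 ± 0.20, adjusted p = 0.00660), and Tmem97, a sterol-regulated membrane protein gene, at 59.0, 56.4 and 74.1 CPM and 16.1, 20.2 and 32.7 CPM (-1.46 ± 0.22, adjusted p = 0.00847). Morrbid, a long noncoding RNA of short-lived myeloid cells, was at 23.4, 21.8 and 25.8 CPM and 6.80, 7.67 and 11.6 CPM (-1.45 ± 0.23, adjusted p = 0.00857). Slc25a1, the mitochondrial citrate carrier that feeds lipid synthesis, was at 77.6, 72.0 and 94.4 CPM and 39.2, 46.5 and 49.2 CPM (-0.86 ± 0.14, adjusted p = 0.0121). The groups did not overlap for any of these 4.

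The series holds 3 other comparisons of irradiated with unirradiated tumours, in the miR-21 line, in the vector line under olaparib and in the miR-21 line under olaparib, and they share no library with the 6 tumours described here. They include irradiated tumour EIO-744 of the miR-21 line under olaparib, which had the lowest voom quality weight of all 24 (0.0768). Krt8 was at 0.285 CPM in it, against 463 and 374 CPM in tumours EIO-713 and EIO-749 of its group. Mki67 was at 21.6 CPM, against 198 and 233 CPM. The part of this tumour in the means was not tested. Groups in those settings also follow the code. The written label differed from it on radiation for tumours EI-742, EI-752, EIO-749, EO-701, EO-703, IO-728 and O-724. Over all tested genes the mean effect of those 3 settings was called upward for 2484 (15.0%) and downward for 1930 (11.7%). Of the 1659 genes called in vector tumours, 1529 (92.2%) had the same sign there, against 73.1% of all tested genes, and 809 (48.8%) were called in the same direction, against 23.7% of all tested genes. The test of the difference, the effect in vector tumours minus the mean of the other 3, called 0 of 16560 genes (0.00%) by edgeR, with 2146 at an unadjusted p below 0.05. DESeq2 called 175 by the same contrast, voom with weights 123, and edgeR 21 without sham tumour S-759.

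For Insig1, Mvk and Cdkn1a the mean fold change of those settings had the sign seen in vector tumours. Insig1 changed there by -1.66 ± 0.13 (adjusted p = 9.86e-07) against -1.73 ± 0.22 in vector tumours, a difference of -0.07 ± 0.25 (adjusted p = 0.944). Mvk changed by -0.998 ± 0.11, a difference of -0.44 ± 0.21 (adjusted p = 0.386). Cdkn1a changed by 1.39 ± 0.14, a difference of -0.12 ± 0.27 (adjusted p = 0.906). The median over the sterol list was -1.50 in vector tumours and -0.83, -1.83 and -1.89 in the miR-21 line, the vector line under olaparib and the miR-21 line under olaparib. For p53 targets it was 0.64 against 0.51, 0.67 and 0.66, and for DNA replication genes -1.05 against -0.47, -1.05 and -0.89.

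For a few lists the medians of the settings are given side by side, with no test over the list. Interferon response genes had a median of 0.10 against 0.89, 0.51 and 0.75, ribosomal protein genes -0.81 against -0.18, -0.41 and -0.45, and MHC class II presentation genes -1.38 against 0.45, 0.36 and -0.49. The interferon median of vector tumours ran from -0.045 to 0.42 with each tumour left out in turn. For MHC class II genes the median ran from -2.74 without tumour I-736 to -0.92 without tumour I-739, edgeR called 0 of 7 genes, with 0 at an unadjusted p below 0.05, DESeq2 and voom with weights called 0, and the tumours overlapped for all 7, with median shifts of -0.998, 0.11 and 0.89 in sham and -1.99, -0.21 and -3.43 in irradiated tumours. No gene of these lists passed the test of the difference. Bax rose in the other settings, by 0.54 ± 0.08 (adjusted p = 0.000338), and its difference of -0.71 ± 0.16 had an unadjusted p of 0.000367 and an adjusted p of 0.213. For Irf7 the mean of the other settings was 1.51 ± 0.26 (adjusted p = 0.000829) and the difference -1.55 ± 0.52 (adjusted p = 0.263). For Tgfbi the other settings gave 0.14 ± 0.11 (adjusted p = 0.348) and the difference was -1.14 ± 0.21 (unadjusted p = 3.77e-05, adjusted p = 0.195).

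**Figure D5:**
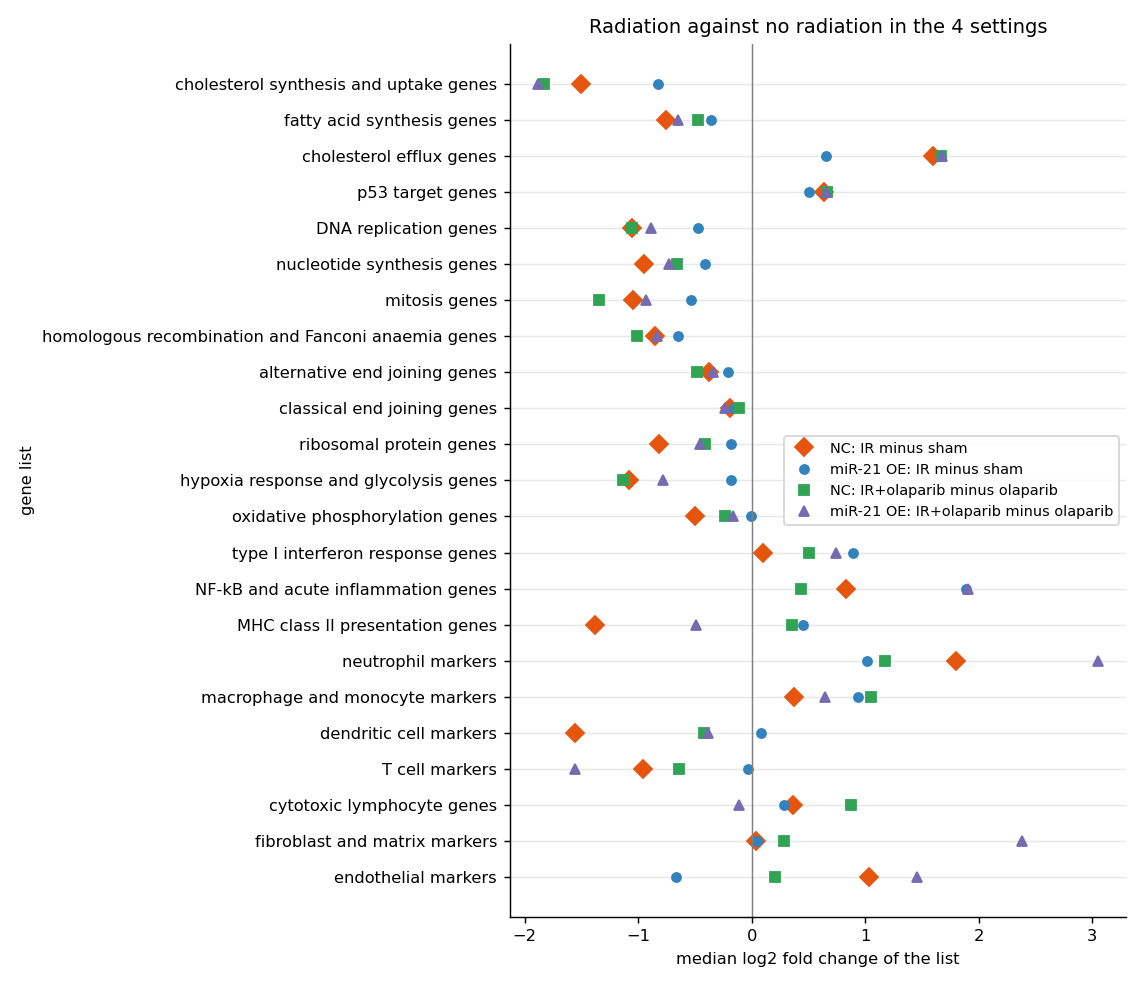
Median log2 fold change of 23 gene lists for irradiated against unirradiated tumours in the 4 settings, each a separate set of 6 tumours, with vector tumours without olaparib as orange diamonds. Cholesterol synthesis and uptake genes lie below 0 in all 4 settings (-1.50, -0.83, -1.83 and -1.89), while interferon response genes are at 0.10 in vector tumours and 0.89, 0.51 and 0.75 in the other 3.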

How the data were processed

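Whole-tumour RNA was extracted with TRIzol and made into libraries with the VAHTS Universal V5 kit, per the labels' protocols. Per the submitters' processing notes, the authors used fastp, HISAT2 and HTSeq on mm10; versions, annotation and strand setting are not given in the sources used here, so overlapping, antisense and near-identical genes are uncertain. The deposited table holds raw read counts per gene, without normalization, and each column of the 24 libraries holds whole numbers. The libraries carry no molecular identifiers that would tell PCR copies apart, as far as the labels say. No pair of replicates was a copy of 1 library (lowest chi-square per gene 10.8).

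Genes were tested with edgeR 4.0.16 in R 4.3.3 (quasi-likelihood F-test, TMM, filterByExpr) on all 24 libraries in 8 groups of 3, with Benjamini-Hochberg adjustment over the 16560 genes kept. The fit was run on simulated counts with the same spread for every gene and library. That simulation held no outlying tumour, so it cannot speak for groups as uneven as these. SE is the log2 fold change divided by the root of F. The shift of a list is the median over its genes of log2(CPM + 0.5) minus the sham mean. Alternatives were the 6 libraries alone, DESeq2 1.42.0 size factors and Wald test, no filter on low counts, each of the 6 libraries left out, groups by the written label and, chosen after the data were seen, limma 3.58.1 voom with sample quality weights.

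The groups, the 42 gene lists and the rules were chosen with earlier results of these data known. Of 736 list entries 727 were found by symbol and 4 by a synonym, and 718 were tested. Named genes are the 12 called genes that rose or fell most at a mean of at least 1 CPM without overlap, predicted genes and pseudogenes left out, up to 4 genes per list by p, and fixed genes. The 12 by smallest p and list members named beside a count were added afterwards. Some genes that these rules name are not reported here. RefSeq promoters on GRCm38.p6, the patched form of mm10, were searched for motifs on both strands, and sequences were printed with matches in capitals. No replicate number is shared between the groups, so no block was fitted.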

Additional observations from a re-analysis of the deposited data

Results flagged for a closer look

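Tgfbi and Vim moved one way in vector tumours and the other way in the miR-21 line. In vector tumours every irradiated tumour lay below every sham tumour for both genes. In the miR-21 line Tgfbi was at 517, 538 and 532 CPM in the sham tumours and at 581, 649 and 757.5 CPM in the irradiated ones, all higher. The radiation effect in vector tumours minus that in the miR-21 line was -1.33 ± 0.26 (SE) for Tgfbi on the log2 scale, which edgeR did not call over all genes (unadjusted p = 6.62e-05, adjusted p = 0.0888). Vim was at 5777, 6194 and 6743 CPM in the sham tumours of the miR-21 line and at 7221, 7597 and 7650.4 CPM in the irradiated ones. By the written label, irradiated tumours EI-742 and EI-752 of the miR-21 line received olaparib alone and tumour EI-745 radiation with olaparib. Sham tumours ES-709 and ES-741 were written as vector tumours with olaparib alone. The difference for Vim was -1.19 ± 0.39 (SE, unadjusted p = 0.00637, adjusted p = 0.162). In the vector line under olaparib Vim was lower with radiation too. There it was at 6867, 8502 and 6721 CPM in tumours O-722, O-723 and O-724 with olaparib alone. With radiation as well it was at 4968, 5955 and 4974 CPM in tumours IO-726, IO-728 and IO-731. Sham tumour S-761 had the highest level of both genes among the 6 vector tumours.

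Tm7sf2, a sterol reductase gene, was lower in every irradiated vector tumour than in every sham tumour and moved the other way in the vector line under olaparib. There it was at 2.41, 2.64 and 3.72 CPM in the tumours with olaparib alone and at 3.87, 4.20 and 4.21 CPM in those with radiation as well. The written label named another group for each of these tumours. It gave tumours IO-728 and O-723 as vector sham tumours and tumour IO-726 as an irradiated vector tumour without olaparib. In the miR-21 line it placed tumour O-722 as sham, tumour O-724 as irradiated and tumour IO-731 as irradiated with olaparib. Neither radiation effect on Tm7sf2 passed its own edgeR test, at -0.60 in vector tumours and 0.49 under olaparib (adjusted p = 0.160 and 0.318). The difference between these effects was -1.09 ± 0.40 (SE, log2 scale), which edgeR did not call (unadjusted p = 0.0132, adjusted p = 0.873). Like Tgfbi and Vim, this gene was flagged because its effects differed between settings.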

How the results depend on the processing

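The number of genes called for radiation against sham, 1659, was 1596 with DESeq2 size factors. It moved by over 1.5 times to 799 with no filter on low counts, 2886 with the DESeq2 test, 5851 with voom weights, 5 with the written label and 0 with the 6 libraries alone, and it ran from 2 to 3733 with 1 library left out. For the effect in vector tumours minus that elsewhere, 0 by edgeR, DESeq2 called 175 and voom with weights 123, and leaving out 1 library gave 0 to 21. Of the called genes that the text names, the direction of none turned in any fit on the coded groups. Under the written label Mdm2 was at -0.19 and Zmat3 at -0.018, both called otherwise, and Bax was at 0.049 and Tm7sf2 at 0.37. Of genes not called, voom weights gave Bax 0.027 and Irf7 0.31, and leaving out 1 library moved Col1a1 from -0.45 to 0.18, Krt14 from -5.06 to 3.83 and Irf7 from -0.24 to 0.19. The causes were not tested. No paired analysis was possible because the groups share no replicate number. With 3 tumours per group, of which tumours I-739 and S-761 had the lowest quality weights of the 6 (0.179 and 0.235), a gene that missed the test cannot be called equal between groups.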
